A study of Mus musculus with 2 samples.

Results

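The replication-dependent histone genes of 4T1 cells, a mouse mammary carcinoma line, were described in RNA sequencing of cells grown with M2 macrophages and of cells grown alone. The group M2 macrophages co-cultured 4T1 shared a transwell with macrophages in the upper chamber for 3 days, and the group control 4T1 had none. Each group was 1 library, so no replicate error exists, no test between the groups can be made, and each value below is a single measurement. The sources used here do not give how long the control cells were cultured, where the macrophages came from or whether libraries were selected by poly(A) tail. For the co-culture library, the title reads 4T2 and the treatment label 4T1, and the label was followed. Members were the protein-coding genes of GENCODE M21 whose symbol begins with Hist1h, Hist2h, Hist3h or Hist4h. Of 70 such symbols 3 were pseudogenes and 2 coding genes, Hist1h2bh and Hist1h2bm, were not analysed here because no row matched their M21 identifiers, which left 65 members among 51912 rows with Ensembl identifiers.

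Chromatin is built from nucleosomes, in which DNA wraps around an octamer of the core histones H2A, H2B, H3 and H4, while linker histone H1 binds where DNA enters and leaves. Cluster genes supply most new histone during S phase, when their transcription and mRNA stability both rise. Their mRNAs are unusual in mammals: they lack introns and end just after a conserved stem-loop instead of in a poly(A) tail. The stem-loop binding protein SLBP holds this element through processing, translation and decay. Some cluster genes can also make spliced or longer, polyadenylated transcripts, which are known from cells that are not in S phase.

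The stem-loop is shown first because the members differ in how their annotated transcripts end around it. A pattern of 16 letters was searched on the transcript strand after the stop codon in GENCODE M21 transcripts, with GG, CTTTT, AG and CC fixed in this order and any letters in the 2, 1 and 2 places between them. They were found in 42 of 65 members, and in 0.0872% of the other protein-coding genes. These 19 other genes include Hist1h2bh and Hist1h2bm, the cluster genes for which no row matched. Each line gives the element with 5 bases on either side where the transcript holds them, 5′ to 3′, on GRCm38, and capitals mark the matched letters.
Hist1h2ap (chr13:21833026-21833049, minus strand): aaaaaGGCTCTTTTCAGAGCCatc
Hist2h2aa1 (chr3:96246027-96246052, plus strand): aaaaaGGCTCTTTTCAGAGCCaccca
Hist1h2bk (chr13:22036295-22036320, plus strand): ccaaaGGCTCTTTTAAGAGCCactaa
Hist1h3d (chr13:23576239-23576264, plus strand): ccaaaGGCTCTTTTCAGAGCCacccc
Hist1h4n (chr13:21831793-21831818, minus strand): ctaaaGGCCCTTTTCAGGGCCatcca
Hist1h4b (chr13:23757361-23757386, plus strand): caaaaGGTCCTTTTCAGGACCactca
Hist1h1c (chr13:23739507-23739532, plus strand): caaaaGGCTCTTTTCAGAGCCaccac
The letters inside the stem followed the histone class. All 11 matched H4 genes carried GGCCC or GGTCC at the 5′ side, and all 31 matched genes of the other classes carried GGCTC. The annotated transcript ended 3 bases after the matched letters in Hist1h2ap, 31 bases after them in Hist1h4n and 840 bases after them in Hist1h1c.

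Core histone genes had mostly higher values in co-culture, and the linker histone gene Hist1h1c had a lower one. Summed over all 65 members the level was 360 TPM in co-culture and 186 TPM in the control, where TPM is a transcript abundance corrected for length and scaled to the same total in each library. The sum was thus 1.94 times as high in co-culture, a log2 ratio of 0.95. In TPM 51 members were higher in co-culture, 6 were lower and 8 were equal, 7 of them listed at 0 in both libraries. For scale, 64.5% of all detected genes were higher in co-culture as deposited, and 70.5% of those with a mean TPM of 1 to 10. In bulk RNA a larger share of cells in S phase and more histone mRNA per cell cannot be told apart.

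Detection required a TPM of at least 1 on average over the libraries, and a gene was called 2-fold different when log2((co-culture TPM + 1)/(control TPM + 1)) reached 1 or -1. The added 1 shrinks the ratios of low genes. Of 47 detected members 25 were at least 2-fold higher in co-culture and 0 were 2-fold lower, against 4.95% higher and 2.14% lower among all 11258 detected genes. Among detected protein-coding genes the shares were 4.28% higher and 1.5% lower. The median log2 ratio was 1.12 in detected members and 0.17 in all detected genes. The count depends on how low values are treated: 7 members were 2-fold higher with a pseudocount of 5, where the median was 0.55, and 3 with a minimum mean TPM of 10, which 5 members reach. Shares of all detected genes are not given for these settings. Most members had low values, and among all detected genes with a mean TPM of 1 to 10 the shares were 7.03% higher and 2.72% lower, where 22 of 42 members were 2-fold higher. The filter itself favours genes that are high in co-culture: 11 detected members had a control TPM below 1, and 4 of these were listed at 0 there. Of the 36 detected members with a control TPM of at least 1, 17 were 2-fold higher and 0 were 2-fold lower, against 3.91% higher and 2.2% lower among all detected genes above the same limit.

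**Figure D1:**
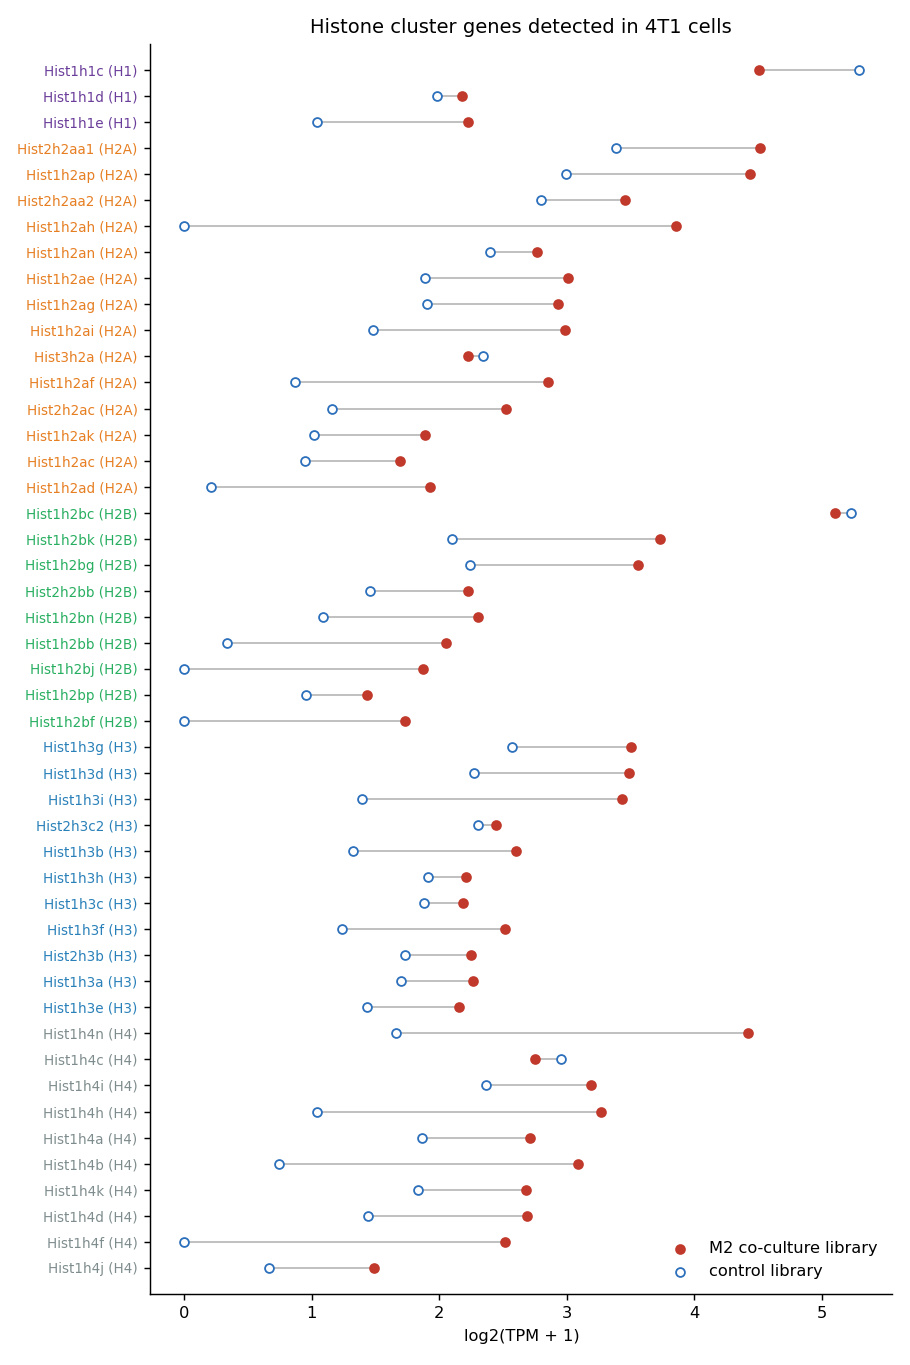
Level of each of the 47 detected members as log2(TPM + 1), with filled points for the M2 co-culture library and open points for the control library, ordered within each histone class by mean TPM. The filled point lies to the right in 43 genes and to the left in Hist1h1c, Hist1h2bc, Hist1h4c and Hist3h2a.

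Many members are near-identical copies, so the value of a single gene depends on how RSEM, which the submitters' notes name, divided the reads they share. Of the distinct 50-base stretches in a member's transcripts, a median of 55.0% also occurred in a transcript of another gene on either strand, and in 34 members the share was over 50%. Those 34 genes summed to 204 TPM in co-culture and 66.6 TPM in the control, and 16 of their 26 detected members were 2-fold higher. The other 31 members, which are easier to tell apart, summed to 156 TPM in co-culture and 119 TPM in the control. Of their 21 detected members 9 were 2-fold higher. These 31 include Hist1h1c and Hist1h2bc, both lower in co-culture, which together had 55.1 TPM in co-culture and 74.6 TPM in the control. The sums of the 31 therefore rest to a large part on these genes. Class sums are given before single genes because they depend less on that division, but they are not free of it: members differ in length, and some share sequence with another class or with genes that are no members.

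**Figure D2:**
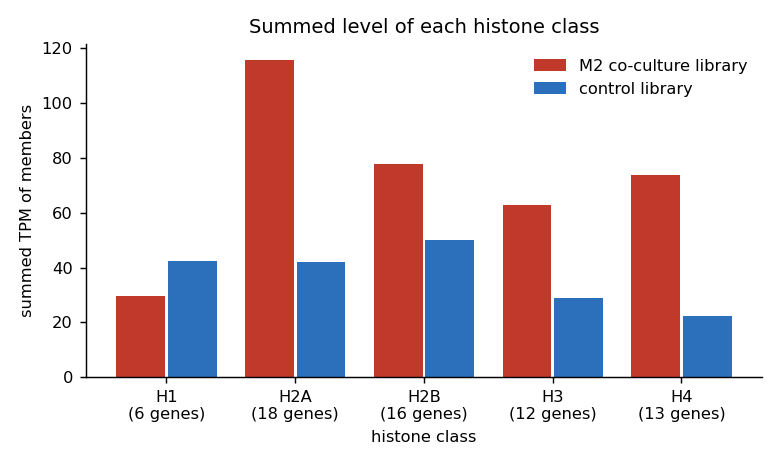
Summed TPM of the members of each histone class, with the M2 co-culture library on the left of each pair of bars and the control library on the right. H4 had the largest ratio, 3.30, at 74.0 and 22.4 TPM, H2A the largest gap, at 116 and 42.2 TPM, and H1 was the class with the lower sum in co-culture, at 29.6 and 42.4 TPM.

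Histone H4 forms a tetramer with H3 at the core of the nucleosome, and all 13 H4 members encode the same protein by translation of the annotated coding sequences. The H4 genes summed to 74.0 TPM in co-culture and 22.4 TPM in the control, a ratio of 3.30. Hist1h4n had 20.5 TPM in co-culture and 2.17 TPM in the control, a log2 ratio of 2.76. Its near copy Hist1h4m, with which it shares 83.2% of its 50-base stretches, was listed at 0 in both libraries, and how reads were divided between them was not tested. Hist1h4b had 7.51 TPM in co-culture and 0.68 TPM in the control, and Hist1h4h had 8.64 TPM and 1.06 TPM in the same order. Hist1h4f, at 4.72 TPM in co-culture, was listed at 0 in the control. Hist1h4d, which shares only 10.2% of its stretches with any other gene, had 5.43 TPM in co-culture and 1.72 TPM in the control, a log2 ratio of 1.24. These 5 genes were the H4 members past the 2-fold threshold. Below it, with log2 ratios of 0.82 to 0.85, lay 4 genes. Hist1h4i had 8.12 TPM in co-culture and 4.17 TPM in the control, and Hist1h4a had 5.55 TPM and 2.64 TPM. Hist1h4k had 5.42 TPM and 2.57 TPM, and Hist1h4j 1.81 TPM and 0.59 TPM, in co-culture and in the control. Hist1h4c was the exception, with 5.73 TPM in co-culture and 6.76 TPM in the control. It had the highest control value of the class. The H4 genes outside the Hist1 cluster were barely present: Hist2h4 had 0.33 TPM in co-culture and 0.03 TPM in the control, and Hist4h4 had 0.24 TPM and 0.03 TPM.

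Histone H3, the partner of H4, carries many of the lysine marks that label active and silent chromatin. The 12 H3 genes summed to 62.8 TPM in co-culture and 29.0 TPM in the control, a ratio of 2.17. Every H3 member except Hist2h3c1 was higher in co-culture, and 4 of 11 detected members were 2-fold higher. Translation split the class into 2 proteins. Hist1h3a, Hist1h3g, Hist1h3h and Hist1h3i encoded the same protein, known in mouse as H3.1, and summed to 27.6 TPM in co-culture and 11.6 TPM in the control. The other 8 genes encoded the protein known as H3.2 and summed to 35.3 TPM in co-culture and 17.4 TPM in the control. As deposited, the ratios of these sums were 2.38 for H3.1 and 2.03 for H3.2. With a TMM scaling of the libraries the log2 ratio of the whole class was 0.90, against 1.09 as deposited. The split between the proteins also depends on shared reads: Hist1h3b, an H3.2 gene, shares 46.6% of its stretches with the H3.1 gene Hist1h3h. The highest single values were close to each other, with Hist1h3g at 10.4 TPM in co-culture and 4.93 TPM in the control, and Hist1h3d at 10.3 TPM and 3.83 TPM in the same order. Hist1h3i had the largest log2 ratio, 2.04, with 9.78 TPM in co-culture and 1.63 TPM in the control, and shares 79.3% of its stretches with Hist1h3h, which had 3.63 TPM and 2.76 TPM. Hist1h3f and Hist1h3b were, with Hist1h3d, the other members past the threshold. Hist1h3f had 4.73 TPM in co-culture and 1.36 TPM in the control, and Hist1h3b had 5.06 TPM and 1.51 TPM. Values of the remaining H3 genes lay closer together. Hist1h3a had 3.80 TPM in co-culture and 2.26 TPM in the control, Hist1h3c had 3.55 TPM and 2.68 TPM, and Hist1h3e had 3.45 TPM and 1.71 TPM. Hist2h3b had 3.76 TPM in co-culture and 2.32 TPM in the control, and all of its stretches also occur in another gene. Hist2h3c2 had 4.46 TPM in co-culture and 3.93 TPM in the control, a difference that turned round with a TMM scaling of the libraries.

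Histone H2A pairs with H2B on the outer faces of the nucleosome. Its 18 members summed to 116 TPM in co-culture and 42.2 TPM in the control, the highest class sum in co-culture and a ratio of 2.74. Of 14 detected members 9 were 2-fold higher. Hist1h2ap had 20.7 TPM in co-culture and 6.96 TPM in the control, a log2 ratio of 1.45, and its near copy Hist1h2ao was listed at 0 in both libraries. Hist1h2ah had 13.5 TPM in co-culture and was listed at 0 in the control. Its own level is uncertain, because 92.1% of its stretches occur in other genes, most of them in Hist1h2ad. Hist1h2ad itself had 2.81 TPM in co-culture and 0.16 TPM in the control, so both genes were higher in co-culture. Hist1h2af had 6.21 TPM and 0.83 TPM, and Hist1h2ai 6.93 TPM and 1.80 TPM, in co-culture and in the control. The other genes past the threshold were Hist2h2ac, Hist1h2ae, Hist1h2ag and Hist2h2aa1. Hist2h2ac had 4.76 TPM in co-culture and 1.24 TPM in the control, and Hist1h2ag had 6.65 TPM and 2.75 TPM. Hist1h2ak, with 2.71 TPM in co-culture and 1.03 TPM in the control, and Hist1h2an, with 5.81 TPM and 4.28 TPM, stayed below it.

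The Hist2 cluster holds Hist2h2aa1 and Hist2h2aa2, which encode 1 protein and lie in mirrored orientation on chromosome 3. Hist2h2aa1 had 21.9 TPM in co-culture and 9.47 TPM in the control, and Hist2h2aa2 had 9.99 TPM and 5.97 TPM. The pair summed to 31.9 TPM in co-culture and 15.4 TPM in the control. Every 50-base stretch of either gene also occurs elsewhere, including in the antisense genes Gm20632 and Gm20633 annotated across them, which had 0.67 and 0.07 TPM in co-culture and 0.34 and 0.11 TPM in the control. Hist3h2a, the only detected member of the Hist3 cluster, had 3.68 TPM in co-culture and 4.09 TPM in the control. It shares 31.5% of its stretches with Trim17, which begins at the same base and was listed at 0 in both libraries.

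In histone H2B, as in H1, a single gene held a large part of the sum. The 16 H2B members summed to 77.9 TPM in co-culture and 49.97 TPM in the control, a ratio of 1.56. Hist1h2bc, the most abundant of all members by mean TPM, accounted for 33.3 TPM of this in co-culture and 36.5 TPM in the control, a log2 ratio of -0.13. Without Hist1h2bc the log2 ratio of the class sum was 1.66, against 0.63 with it. The next genes went the other way: Hist1h2bk had 12.3 TPM in co-culture and 3.30 TPM in the control, and Hist1h2bg had 10.8 TPM and 3.73 TPM. Hist1h2bb had 3.16 TPM and 0.26 TPM. Hist1h2bj and Hist1h2bf, at 2.67 and 2.33 TPM in co-culture, were both listed at 0 in the control. With Hist1h2bn, at 3.95 TPM in co-culture and 1.13 TPM in the control, these made 6 of 9 detected H2B members at least 2-fold higher. Hist2h2bb, with 3.68 TPM in co-culture and 1.74 TPM in the control, and Hist1h2bp, with 1.71 TPM and 0.94 TPM, did not reach the threshold. Hist1h2br was lower in co-culture, at 0.72 TPM against 1.27 TPM in the control.

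Linker histone H1 compacts the fibre between nucleosomes and exists as several subtypes. Its sum was lower in co-culture, at 29.6 TPM against 42.4 TPM in the control, a ratio of 0.698. This came from Hist1h1c, which encodes the subtype H1.2 and lies on chromosome 13 from 23738808 to 23740367. It had 21.8 TPM in co-culture and 38.1 TPM in the control, a log2 ratio of -0.78 and the lowest of all members. Only 8.5% of its stretches occur in another gene. Hist1h1e, the gene of H1.4, had 3.68 TPM in co-culture and 1.06 TPM in the control, a log2 ratio of 1.18, though 23.8% of its stretches lie in the overlapping Hist1h2be on the same strand. Hist1h1d (H1.3) had 3.52 TPM in co-culture and 2.95 TPM in the control, and Hist1h1b (H1.5) had 0.59 TPM and 0.27 TPM. Without Hist1h1c the sign of the class changed, and the log2 ratio of its sum was 0.74.

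As a share of all cluster histone TPM, H1 made up 8.21% in co-culture and 22.8% in the control. The share was 20.5% in co-culture and 12.1% in the control for H4, and 32.2% and 22.7% for H2A. For H3 it was 17.5% in co-culture and 15.6% in the control, and for H2B 21.6% and 26.9%. Hist1h1c and Hist1h2bc together, singled out after their values were seen, took 15.3% of the members' TPM in co-culture and 40.1% in the control. The remaining 63 members summed to 305 TPM in co-culture and 111 TPM in the control, a ratio of 2.74.

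The 18 members that were not detected included those whose known expression is in the testis. Hist1h1t, Hist1h2aa and Hist1h2ba, which encode linker, H2A and H2B proteins of male germ cells, were listed at 0 in both libraries. So were Hist1h1a, Hist1h2ao, Hist1h4m and Hist3h2ba. Of the other undetected members 8 were higher and 2 lower in co-culture, with no value above 1.34 TPM. Hist2h2be, 1 of 4 members with no stretch in any other gene, had 0.71 TPM in co-culture and 0.25 TPM in the control.

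The ratios differed with the way the annotated transcripts end. The grouping used sequence and gene models only, but it was made after the values were known and no test was applied to it. In 21 members the annotation ended within 100 bases of the stem-loop, as in the replication-dependent form. These summed to 143 TPM in co-culture and 41.4 TPM in the control, a ratio of 3.45. Of their 18 detected members 14 were 2-fold higher, against 4.95% of all detected genes. The filter bears on this count, because several passed it only through co-culture. Hist1h2bp, Hist1h4b, Hist1h2bb and Hist1h2ad had a control TPM below 1, and Hist1h4f, Hist1h2bf and Hist1h2bj were listed at 0 there. None of the 21 was lower in co-culture. Another 21 members had models that ran further past the stem-loop, and they summed to 98.6 TPM in co-culture and 78.2 TPM in the control. Of their 15 detected members 6 were 2-fold higher and 3 had lower values. Hist1h4j and Hist1h2ac were the detected ones with a control TPM below 1. Left without Hist1h1c, this group summed to 76.8 TPM in co-culture and 40.1 TPM in the control, a ratio of 1.92.

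In 3 members, all of them H2B genes, each model reaching past the stop codon was spliced and held no match to the stem-loop. These were Hist1h2bc, Hist1h2bq and Hist1h2br, which together had 34.0 TPM in co-culture and 37.8 TPM in the control. Hist1h2bq and Hist1h2br are near copies of each other, and Hist1h2bq was at 0.03 TPM in both libraries. The last 20 members had unspliced models without a match. Most of these are annotated almost as coding sequence alone, so the place of the stem-loop was not searched in them. These summed to 84.5 TPM in co-culture and 28.6 TPM in the control, with 17 higher and 0 lower in co-culture. All 6 members with lower values in co-culture thus fell among the 24 whose models are spliced or run past the stem-loop. Most of these differences were small. Hist1h2br was not detected, nor was Hist2h3c1, at 0 TPM in co-culture and 0.05 TPM in the control. Hist3h2a, Hist1h2bc and Hist1h4c had log2 ratios of -0.12, -0.13 and -0.21, and Hist1h1c had -0.78. The groups also differed in transcript length, with medians of 482 bases for models that end near the stem-loop, 1249 for those that run past it, 1254 for spliced models and 402 for the rest. They differed too in the share of a member's stretches that also occur in another gene. The median share was 65.8% for models that end near the stem-loop and 24.6% for those that run past it. For spliced models it was 88.7%, and for the rest 77.2%. The part of length, of shared stretches or of the choice of gene model in the ratios was not tested.

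**Figure D3:**
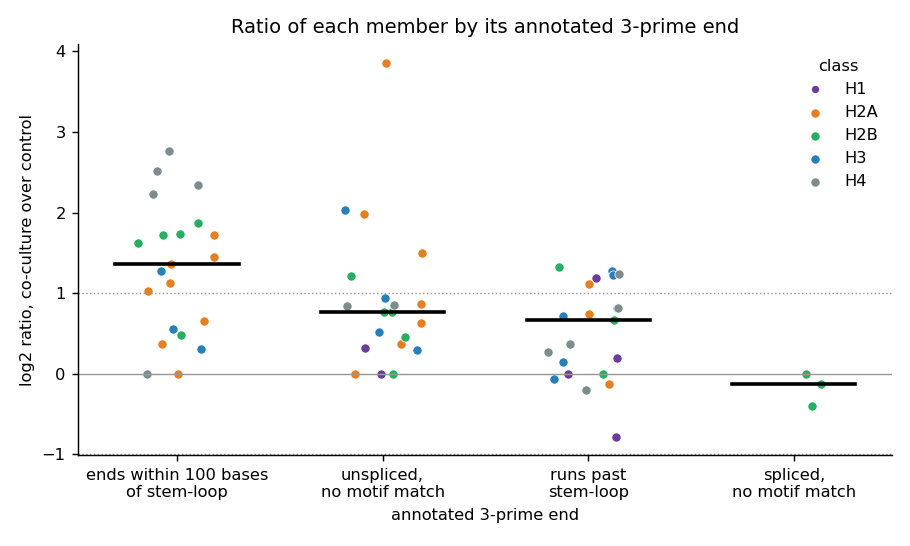
Log2 ratio of co-culture over control for each of the 65 members (points, coloured by histone class), grouped by the annotated 3-prime end, with a bar at each group's median and dotted lines at the 2-fold threshold. Points below 0 occur only in the groups whose models run past the stem-loop or are spliced, and 2 of them, Hist1h2br and Hist2h3c1, were not detected. The group ending within 100 bases of the stem-loop has 14 of 21 points at or above 1. Hist1h4f, Hist1h2bf and Hist1h2bj in that group were listed at 0 in the control, so their height depends on the pseudocount of 1.

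Cluster genes lie close together, and 52 of the 65 members belong to Hist1 on chromosome 13. The Hist1 members summed to 306 TPM in co-culture and 157 TPM in the control, a ratio of 1.95, and the 10 Hist2 members on chromosome 3 to 50.1 TPM in co-culture and 25 TPM in the control, a log2 ratio of 0.98. The Hist3 and Hist4 clusters, on chromosomes 11 and 6, contributed 3.68 and 0.24 TPM in co-culture and 4.09 and 0.03 TPM in the control. Hist1 falls into 4 blocks separated by gaps of over 100 kb. The block from 21715763 to 21837530 summed to 85.6 TPM in co-culture and 27.8 TPM in the control. The small block from 22035164 to 22043676 held 5 members, of which 4 were 2-fold higher, and summed to 43.2 TPM in co-culture and 10.2 TPM in the control. The largest block, from 23531050 to 23764406, summed to 177 TPM in co-culture and 119 TPM in the control, and contains both Hist1h1c and Hist1h2bc. Of its 28 members 14 were 2-fold higher. The last block holds only the testis genes Hist1h2ba and Hist1h2aa, both listed at 0.

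**Figure D4:**
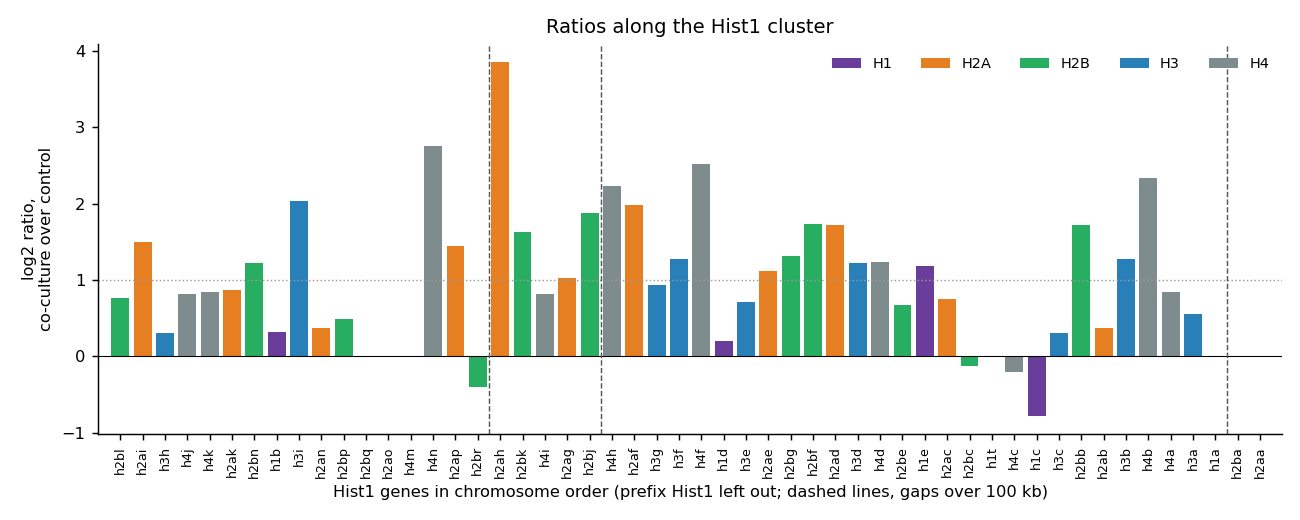
Log2 ratio of co-culture over control for the 52 Hist1 members in chromosome order, coloured by histone class, with dashed lines at gaps of over 100 kb and a dotted line at the 2-fold threshold. High bars occur in each of the first 3 blocks, and Hist1h2br, Hist1h2bc, Hist1h4c and Hist1h1c point down. Hist1h2ah, Hist1h4f, Hist1h2bf and Hist1h2bj were listed at 0 in the control, so the height of their bars depends on the pseudocount of 1.

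H2A and H2B genes often stand back to back and share the DNA between their starts as a promoter. In 12 pairs the annotated starts lay on opposite strands within 500 bases, with 175 to 305 bases between them, and each pair joined an H2A gene with an H2B gene. Both partners were higher in co-culture in 8 pairs, and both were 2-fold higher in 4. For scale, 78.5% of the 65 members were higher in co-culture and 25 were 2-fold higher. Whether partners went together more than other members was not tested. The shortest stretch between starts, 175 bases, separates Hist1h2ae from Hist1h2bg. Hist1h2ae had 7.06 TPM in co-culture and 2.71 TPM in the control, and Hist1h2bg had 10.8 TPM and 3.73 TPM. The partners differed in direction in 2 pairs. Hist1h2ap had 20.7 TPM in co-culture and 6.96 TPM in the control, while its partner Hist1h2br had 0.72 TPM and 1.27 TPM. In the same way Hist1h2ac had 2.24 TPM in co-culture and 0.93 TPM in the control, beside Hist1h2bc at 33.3 TPM and 36.5 TPM.

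The stretch between the starts of Hist1h2ae and Hist1h2bg is printed as an example of a shared promoter whose genes were both higher. It is the plus strand of GRCm38 at chr13:23571221-23571395, taken from RefSeq's promoter windows on GRCm38.p6, with Hist1h2ae starting to the left and Hist1h2bg to the right. Capitals mark CCAAT (bound by NF-Y), TATAAA (the TATA box) and ATTTGCAT (the octamer bound by OCT1, known for its part in H2B transcription), searched on both strands.
Hist1h2ae/Hist1h2bg: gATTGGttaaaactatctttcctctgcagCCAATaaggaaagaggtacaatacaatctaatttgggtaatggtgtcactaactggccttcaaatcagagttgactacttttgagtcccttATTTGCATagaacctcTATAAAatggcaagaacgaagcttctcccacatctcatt
It held CCAAT 2 times, on opposite strands, and the octamer and TATAAA 1 time each, on the plus strand that Hist1h2bg is read from. RefSeq windows of 250 bases before to 50 after the start were matched by gene identifier for 60 members. A member was counted when any of its windows matched, while the share over all windows counts single windows. CCAAT was found on either strand for 51 of these members, and in 37.4% of all 32817 windows. It was found for every H1, H2A, H2B and H3 gene with a window and for 3 of 12 H4 genes. TATAAA was found for 35 of 60 members and in 13.6% of all windows. ATTTGCAT was found for 13 members, 6 H2B and 7 H2A genes, and in 1.74% of all windows. Windows of back-to-back genes overlap, so their matches are not independent, and a match shows letters and not binding.

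Histones made outside the clusters differed less. Variant histones are encoded by genes outside the clusters, and many of these are expressed outside S phase and give polyadenylated mRNAs. All 9 detected of 11 listed variants had higher values in co-culture as deposited, beside 64.5% of all detected genes. With a TMM scaling of the libraries H3f3b was lower. None of these variants was 2-fold different, and the median log2 ratio was 0.47. Their sum, 2960 TPM in co-culture and 2188 TPM in the control, was far above that of the cluster genes in both libraries. Whether libraries were selected by poly(A) tail is not known here, and its part in this gap was not tested. Cenpa, the H3 variant of centromeres, had 239 TPM in co-culture and 124 TPM in the control, a log2 ratio of 0.94. H2afx, the H2A variant phosphorylated at DNA breaks, had 237 TPM and 128 TPM, and was itself among the genes outside the clusters that matched the stem-loop letters. H2afz (H2A.Z) had 813 TPM in co-culture and 652 TPM in the control. H3f3a and H3f3b, the genes of H3.3, had log2 ratios of 0.44 and 0.17, and H2afv and H2afy (macroH2A) had 0.55 and 0.47. H1f0, the replacement linker histone, had 571 TPM in co-culture and 405 TPM in the control, so its direction was opposite to that of Hist1h1c.

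Factors that make and process histone mRNA were mostly within a small range. Of 20 detected factors 16 had higher and 4 had lower values as deposited, beside 64.5% higher among all detected genes, and 11 and 9 with a TMM scaling. None was 2-fold different, and the median log2 ratio was 0.20, near the 0.17 of all detected genes. Slbp, the stem-loop binding protein, had the largest log2 ratio, 0.89, with 75.6 TPM in co-culture and 40.4 TPM in the control. Lsm10, a subunit of the U7 snRNP that cuts histone pre-mRNA, had 32.6 TPM in co-culture and 18.5 TPM in the control. Its partner Lsm11 had 8.40 TPM and 10.1 TPM. Npat, the coactivator at histone loci, had 4.09 TPM in co-culture and 2.65 TPM in the control, and Casp8ap2 (FLASH), which bridges transcription and cleavage, had a log2 ratio of 0.69. Srrt (ARS2), which links the cap to 3-prime processing, had a log2 ratio of 0.60, and Tut7, which adds uridines to histone mRNA during decay, one of 0.49.

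Histone chaperones, which carry new histones to DNA, had a median log2 ratio of 0.24 over 28 genes, with 23 higher, 5 lower and 0 at least 2-fold different, beside the same 64.5%. With a TMM scaling 17 were higher and 11 lower, and Chaf1b was among those that turned. Hjurp, the chaperone of CENP-A, had 142 TPM in co-culture and 80.7 TPM in the control. Nasp, which holds the pool of soluble H3 and H4, had 56.5 TPM and 35.3 TPM. Supt16, a subunit of FACT, had a log2 ratio of 0.74, Ubn1, of the HIRA complex, one of 0.70, and Anp32e, which removes H2A.Z, one of 0.57. Asf1b, which hands H3 and H4 to the assembly factor CAF-1, had 59.3 TPM in co-culture and 42.8 TPM in the control, while the CAF-1 subunit Chaf1b had 37.1 TPM and 36.7 TPM. The importin gene Ipo4 had the lowest log2 ratio of the list, -0.58.

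Genes of the G1/S transition and DNA replication, the phase in which cluster histones are made, had a median log2 ratio of 0.24 over 40 genes. Of these 30 had higher and 10 lower values as deposited, beside the 64.5% of all detected genes that were higher, and 26 and 14 with a TMM scaling. Ccna2 (cyclin A2) was the only gene of the list that was 2-fold higher, with 147 TPM in co-culture and 61.9 TPM in the control. Rfc1, the large subunit of the clamp loader, had a log2 ratio of 0.95, and Uhrf1, which couples replication to DNA methylation, one of 0.86. Pcna, the replication clamp, had 312 TPM in co-culture and 205 TPM in the control. Ccne2 (cyclin E2) had 6.41 TPM in co-culture and 3.61 TPM in the control. Ccne1 (cyclin E1) went the other way, with 6.14 TPM in co-culture and 9.03 TPM in the control. Its log2 ratio of -0.49 was the lowest of the list. Mcm2, of the replicative helicase, had 87.2 TPM in co-culture and 91.7 TPM in the control. Rpa3, of the single-strand binding complex RPA, and Rrm1, of ribonucleotide reductase, had log2 ratios of 0.66 and 0.64. The difference between the cluster histones and these lists was not tested.

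**Figure D5:**
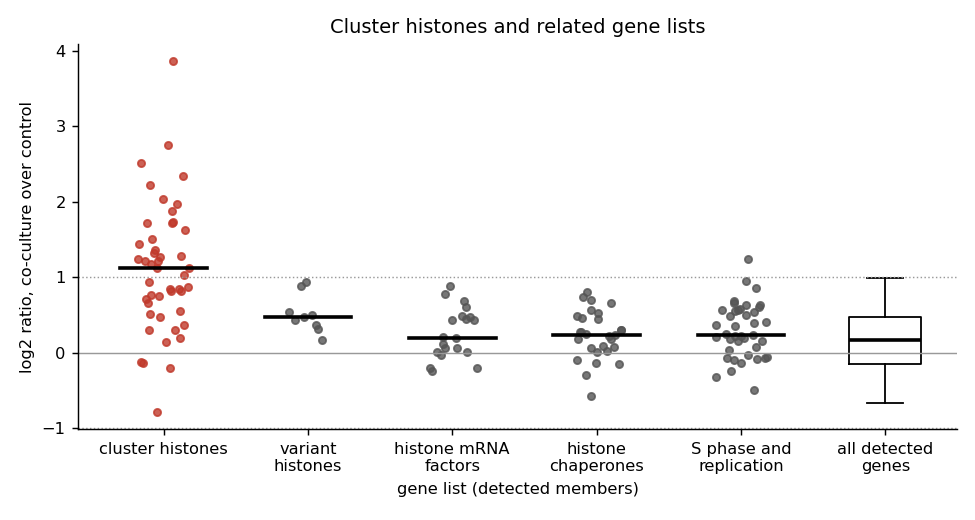
Log2 ratio of co-culture over control for detected cluster histones and for detected genes of 4 related lists (points, with a bar at each median), beside a box for all 11258 detected genes that spans the 25th to 75th percentile with whiskers from the 5th to the 95th. The median was 1.12 for cluster histones, 0.47 for variant histones and 0.20 to 0.24 for the other lists.

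Markers of macrophages and of mammary epithelium were read in the same libraries. Only 1 of 15 macrophage markers was detected, Cd68, with 27.8 TPM in co-culture and 57.7 TPM in the control. Both libraries had 0 for Ptprc, Adgre1, Itgam, Tyrobp, Fcer1g, C1qa, Arg1, Chil3 and Retnla. Aif1 and Mrc1, the next highest, had 0.27 and 0.08 TPM in co-culture and 0 and 0.05 TPM in the control. The summed level of the list was 28.3 TPM in co-culture and 57.8 TPM in the control. Of 7 epithelial markers 4 were detected. Krt8 and Krt18 were abundant, at 630 and 484 TPM in co-culture and 548 and 439 TPM in the control, although Krt18 was lower with a TMM scaling. Krt7 had 18.3 TPM in co-culture and 15.9 TPM in the control, and Krt19 had 2.64 TPM and 0.18 TPM. The 3 undetected markers were Krt14, Cdh1 and Epcam. Krt14 had 0.32 TPM in co-culture and 0.23 TPM in the control, Cdh1 had 0.01 TPM and 0.04 TPM, and Epcam was listed at 0 in both. The part of Cd68 and Krt19 in the histone values was not tested.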

How the data were processed

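Per the labels' protocols, total RNA of 4T1 cells was extracted with TRIzol, treated with DNase I and made into libraries by standard Illumina methods. The authors deposited 1 table of TPM values with 1 column per library, rounded to 2 decimals. HISAT2 2.1.0, RSEM 1.2.31 and the build GRCm38.p5 are listed, without roles, per the submitters' processing notes. The annotation release, strandedness and filters were not given in the sources used here. TPM keeps no depth, so no counting intervals were computed, and low values may rest on few reads.

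Symbols, positions, transcripts and coding sequences came from GENCODE M21 (GRCm38), which held symbols for 51633 of 51912 Ensembl rows. Promoter windows came from RefSeq (GRCm38.p6). Log2 ratios used a pseudocount of 1, sums had 1 added before the log2 ratio, and ratios of sums without "log2" had none. Analysis used Python 3.11.15, numpy 2.4.6, pandas 2.3.3 and Biopython 1.88. Ratios, 2-fold calls and the median ratio and TMM scalings were tested on simulated data. Those calls used a pseudocount of 0.1 after median ratio scaling. The main setting, with a pseudocount of 1 on values as deposited, and the sequence searches were not tested in this way. Detected members were named with their values, and each gene list gave its 2-fold different genes, its largest ratios up to 6 in all and a set of genes named whatever their values. Ccne1 was named beside Ccne2. For markers, the 3 highest and those at 0 were named, and the other epithelial markers were added. Members and lists were chosen with earlier results of these data known. Alternatives were other pseudocounts, filters, thresholds and scalings, and sums without the highest member.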

Additional observations from a re-analysis of the deposited data

How the results depend on the processing

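In the 3 other scalings the co-culture library was scaled down by a log2 factor of 0.12 (median ratio over genes with 10 TPM or more), 0.19 (unweighted TMM) or -0.02 (rescaled without mitochondrial and the 20 most abundant genes). They left 24, 22 and 25 members 2-fold higher, against 406, 345 and 594 of all detected genes, and 0 members 2-fold lower. Hist1h2bq, equal as deposited, left equality under each, and Hist2h3c2 turned lower under TMM. The median log2 ratio of all detected genes was 0.06, -0.01 and 0.18. The median log2 ratio of detected members was 1.02, 0.95 and 1.14 under these scalings, 1.35 and 0.55 with pseudocounts of 0.1 and 5, 0.76 with no filter, 1.11 as a mean and 1.18 with identical proteins summed. A pseudocount of 5 left 7 members 2-fold higher, a pseudocount of 0.1 gave 32, and a minimum mean TPM of 10 left 3, since only 5 members reach it. A log2 threshold of 0.5 gave 37 higher and 1 lower, Hist1h1c. For scale, the log2 ratios of all detected genes had a 25th percentile of -0.14 and a 75th percentile of 0.48. Shares of all detected genes are not given for these pseudocounts, this filter or this threshold. The log2 ratio of the sum over all members was 0.76 to 0.97 under the scalings and 1.69 without members annotated past the stem-loop or spliced, a choice made after the data were seen, as was the limit on control TPM (17 higher). Without the highest member the log2 ratio was 0.74 for H1 and 1.66 for H2B. The Hist4 sum had a log2 ratio of 0.27, and 1.39 with a pseudocount of 0.1, from values below 1 TPM. Assembled loci could not be added, because the table gives no positions for them. No paired analysis was possible because each group has 1 library.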

Other observations

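Outside the 65 members, 2 pseudogene rows with histone cluster symbols had values. Hist1h2al, a processed pseudogene apart from the cluster on chromosome 13, had 7.15 TPM in co-culture and 4.61 TPM in the control. Hist1h2aj, annotated as an unprocessed pseudogene within Hist1, was listed at 0 in co-culture and had 0.93 TPM in the control. With both rows and Hist3h2bb-ps added, the log2 ratio of the members' sum was 0.94, against 0.95 without them.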
